A study of Mus musculus with 12 samples.

Results

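Gsx1, Gsx2, Sp8, Sp9, Meis1, Meis2, Ebf1, Six3 and Foxp2 are transcription factors of the lateral ganglionic eminence (LGE) and of the striatal neurons born there. These 9 genes were taken by name, out of 21951 protein-coding genes of the GENCODE M21 annotation, and all 9 were found in it. Their H3K4me3 was read from the peak lists of 4 regions of the embryonic mouse forebrain, the medial (MGE), lateral (LGE) and caudal (CGE) ganglionic eminences and the cortex (CTX). For each gene the peaks within 5 kb of any annotated transcription start site (TSS) and the peaks over the gene body were collected, with their number, their width, the bases they covered and the rank of those bases within the list.

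All embryos were wild-type C57BL/6J mice, and no group was treated or carried a transgene. The age is E12.5 by the paper, the protocol in the sample labels names E12.5 and E14.5 together, and the cortical piece is given there as somatosensory cortex. There were 12 libraries, 3 from MGE, 2 from LGE, 4 from CGE and 3 from CTX, which made up 2 replicates per region, and the authors merged these before calling the broad peaks used here. Each region is therefore 1 list without a replicate error, no difference between regions could be set against a replicate spread, and no test was run. The dissected pieces are mixtures of progenitors and newborn neurons, so that fewer marked cells and less mark per cell cannot be told apart. The protocol also speaks of pooling equal numbers of nuclei from the regions before each reaction, although each library is labelled with 1 region.

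H3K4me3, trimethylation of lysine 4 on histone H3, is laid down at the starts of active genes and of genes poised for activity, and unusually wide domains of it are a known feature of genes that specify cell identity. In the CUT&Tag assay an antibody against the mark tethers a transposase, which cuts and tags the DNA beside it. The LGE lies between the MGE and the cortex: its progenitors express the homeobox genes Gsx1 and Gsx2, and its daughters become projection neurons of the striatum and interneurons of the olfactory bulb. Sp8 and Sp9 act in the dividing and newly postmitotic cells, Meis1 and Meis2 in progenitors and neurons, and Ebf1, Six3 and Foxp2 in differentiating striatal neurons.

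The promoters of Gsx1, Gsx2 and Sp9 are shown because Gsx1 and Sp9 carried no peak in CTX and Gsx2 only a short one. The sequences are from RefSeq promoters of GRCm38.p6, end at the last base before the annotated 5′ end, and are on the plus strand, with capitals marking the bases inside the LGE peak. Gsx1 (chr5:147188446-147188695), Gsx2 (chr5:75075351-75075600) and Sp9 (chr2:73271676-73271924) read:
Gsx1 promoter: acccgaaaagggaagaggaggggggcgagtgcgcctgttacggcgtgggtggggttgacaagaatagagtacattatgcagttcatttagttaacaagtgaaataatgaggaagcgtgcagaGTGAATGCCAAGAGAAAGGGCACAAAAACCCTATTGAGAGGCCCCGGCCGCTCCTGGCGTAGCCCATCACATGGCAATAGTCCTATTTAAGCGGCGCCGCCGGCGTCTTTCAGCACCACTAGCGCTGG
Gsx2 promoter: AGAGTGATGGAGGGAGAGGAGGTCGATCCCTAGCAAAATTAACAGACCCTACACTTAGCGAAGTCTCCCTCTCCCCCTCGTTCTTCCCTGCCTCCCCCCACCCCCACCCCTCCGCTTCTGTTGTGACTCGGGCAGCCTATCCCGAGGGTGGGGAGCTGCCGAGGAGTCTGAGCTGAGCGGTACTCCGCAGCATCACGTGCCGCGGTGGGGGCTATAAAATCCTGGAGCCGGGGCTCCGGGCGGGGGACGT
Sp9 promoter: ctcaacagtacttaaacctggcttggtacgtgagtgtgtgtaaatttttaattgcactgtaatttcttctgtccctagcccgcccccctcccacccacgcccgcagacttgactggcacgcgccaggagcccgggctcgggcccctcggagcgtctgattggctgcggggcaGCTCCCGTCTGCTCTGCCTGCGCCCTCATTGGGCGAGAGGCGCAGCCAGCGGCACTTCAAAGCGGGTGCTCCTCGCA
The LGE peak took in all 250 bases shown for Gsx2, the 128 bases of Gsx1 next to its start and the 77 bases of Sp9 next to its start. The whole promoter stretches shown held 15 CpG dinucleotides in Gsx1, 16 in Gsx2 and 18 in Sp9.

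An intronic stretch of Sp9 and another of Meis1 are shown because they were marked in some regions only. The 256 bases of Sp9 (chr2:73277472-73277727, plus strand, GRCm38) lie under the peaks of MGE, LGE and CGE and under none of CTX. The 300 bases of Meis1 (chr11:19015210-19015509, minus strand, GRCm38) lie under the peaks of LGE and CGE and under none of MGE or CTX. Both were read from the genome, and capitals mark the GC box letters GGGCGG, the only one of the 4 short motifs searched that either stretch held:
Sp9 intron: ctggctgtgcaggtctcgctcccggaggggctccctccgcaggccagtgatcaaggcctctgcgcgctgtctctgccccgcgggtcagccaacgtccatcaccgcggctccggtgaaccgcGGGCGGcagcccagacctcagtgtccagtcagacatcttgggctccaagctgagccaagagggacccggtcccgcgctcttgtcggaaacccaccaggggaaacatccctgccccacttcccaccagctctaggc
Meis1 intron: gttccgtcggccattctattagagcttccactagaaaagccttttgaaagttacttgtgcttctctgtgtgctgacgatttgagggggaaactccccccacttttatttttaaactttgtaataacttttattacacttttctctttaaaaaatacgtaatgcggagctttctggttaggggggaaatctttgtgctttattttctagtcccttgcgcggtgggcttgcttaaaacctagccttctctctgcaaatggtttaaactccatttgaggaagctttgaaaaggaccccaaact
The Sp9 stretch had a GC content of 67.6% and the Meis1 stretch one of 40.7%. The ratio of observed to expected CpG was 0.629 in the Sp9 stretch and 0.565 in the Meis1 stretch.

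The CpG content of the 9 starts stood above the middle of all protein-coding genes, marked or not. In the 1 kb either side of the 5′ end the observed to expected CpG ratio had a median of 0.684 over the 9 genes and of 0.474 over all protein-coding genes. It was highest at Meis1 (0.79), Gsx1 (0.765) and Foxp2 (0.759) and lowest at Six3 (0.558), whose start still stood at percentile 60.3 of all protein-coding genes. GC content alone was close to the background, with medians of 52.7% and 51.2%. The CpG ratio of the factors' LGE peaks was also ranked among all peaks of that list. The peaks over the start of Gsx1 (percentile 87.4), Sp9 (96.3), Meis1 (64.5) and Foxp2 (68.6) and the Sp8 peak (81.8) lay above its middle. All other LGE peaks of the factors, among them every one of Meis2, Ebf1 and Six3, lay below it. RefSeq promoters of 300 bases (250 before and 50 after the start) were matched for 8 of the 9 genes (not Foxp2) and gave 11 windows among 32851. On either strand, GGGCGG, the GC box read by Sp factors, was in 3 of the 11 (Gsx2, Sp8, Sp9) and in 35.7% of all windows. TGACAG, a Meis core, was in 2 (Sp8, Six3) and in 19.2% of all. TAATTA, a homeodomain core, was in 1 (Sp8) and in 5.29% of all, and the E-box CAGCTG was in 0 and in 16.3% of all. None of these 4 motifs contains another.

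The lists themselves differed in ways that touch every value below. They held 17284 peaks in LGE, 25339 in MGE, 17752 in CGE and 21442 in CTX, with median widths of 1168, 563, 1240 and 701 bp in the same order. The LGE and CGE lists thus had fewer and wider peaks, and covered 21.6 and 23.5 Mb against 17.1 Mb in MGE and 16.7 Mb in CTX. By the study's methods the CGE libraries were sequenced most deeply and those of MGE least, and the part of depth in the values below was not tested. Covered bases are therefore given beside the percentile within the list, which is the rank of a gene's covered bases among the protein-coding genes with a peak in that same list.

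Markers of other regions and cell types were read in the same way. The 3 MGE markers Nkx2-1, Lhx6 and Lhx8 summed to 7853 covered bases in LGE, 8385 in MGE, 12214 in CGE and 451 in CTX. Nkx2-1 and Lhx8 were at 0 in CTX. By percentile within the list Nkx2-1 (98.7) and Lhx8 (91.4) were highest in MGE, and Lhx6 (99.5) in CGE. The 4 cortical markers Emx1, Neurod6, Tbr1 and Neurog2 all had a peak in all 4 lists. They summed to 9470 bases in LGE, 1592 in MGE, 9125 in CGE and 6567 in CTX, so that LGE was above CTX in summed bases. By percentile Emx1 was at 95.7 in LGE and 97.7 in CTX, and Neurog2 at 81.5 and 92. Tbr1 was at 92.9 in LGE and 57.5 in CTX, and Neurod6 at 29.2 and 3.37. Neurog2 also had more bases in CTX (2169) than in LGE (2123). The 5 pan-eminence markers (Dlx1, Dlx2, Dlx5, Dlx6, Gad1) summed to 18264, 11321, 23683 and 3829 bases in LGE, MGE, CGE and CTX, and the 2 CGE markers (Nr2f1, Nr2f2) to 12154, 7963, 20585 and 5442 in that order. Of the 4 microglial markers only Tmem119 had a peak, of 249 bases in MGE, and the other 3 were at 0 in all lists. The 4 endothelial markers summed to between 1675 bases (CTX) and 2248 bases (CGE), with a peak at 3 of them in MGE and 2 elsewhere and Cdh5 at 0 in all lists. The 3 muscle markers summed to between 284 bases (CTX) and 1835 bases (CGE), with Myog at 0 in all lists and Myod1 marked in CGE only. The part of cells from neighbouring regions in the values of the 9 factors was not tested.

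All 9 factors were marked in the 3 eminences, and 7 of them in CTX. A peak within 5 kb of a TSS was found for 64.2% of protein-coding genes in LGE, 65% in MGE, 64.6% in CGE and 63.8% in CTX. Gsx1 and Sp9 were marked in the 3 eminences and not in CTX, a pattern shared by 1.64% of the 14900 protein-coding genes with a peak in any list. The windows of the 9 genes held 20 peaks in LGE, 23 in MGE, 20 in CGE and 16 in CTX. Summed over the genes these covered 36182 bases in LGE, 22563 in MGE, 41498 in CGE and 12797 in CTX. The median percentile of the marked factors was 97.1 in LGE, 93.7 in MGE, 97.7 in CGE and 90.7 in CTX, where 50 is the middle of all marked protein-coding genes. Below 50 were Ebf1 in MGE and CTX, Gsx2 and Six3 in CTX and Gsx1 in LGE, and Gsx1 and Sp9 had no rank in CTX. Windows grow with the number of TSSs, and the share of the window covered gave other ranks. In CTX these were 99.7 for Sp8, 87.4 for Meis1, 67.4 for Meis2 and 23.9 for Gsx2. Foxp2 was at 21.1 there, Ebf1 at 8.97 and Six3 at 3.38. On that scale the factors ranged from 37.1 (Foxp2) to 99.5 (Six3) in LGE and from 5.03 (Ebf1) to 99.8 (Six3) in MGE. In CGE they ranged from 33.8 (Foxp2) to 99.6 (Six3).

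**Figure D1:**
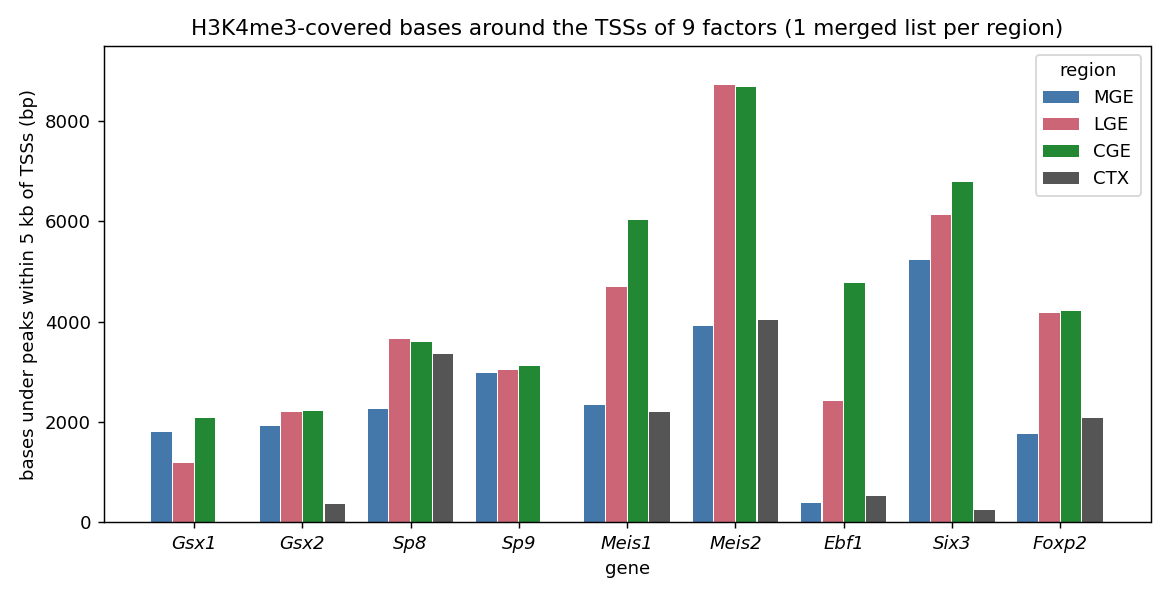
Bases under H3K4me3 peaks within 5 kb of the TSSs of each factor (y axis, bp, starting at 0) in the merged list of MGE, LGE, CGE and CTX (bars, no error because each region is 1 list). The tallest bars are those of Meis2 in LGE (8719 bp) and CGE (8681 bp), and Gsx1 and Sp9 have no bar in CTX.

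The homeobox genes Gsx1 and Gsx2, which set the identity of LGE progenitors, had their main peak over the start in each list that marked them. Gsx1 (ENSMUSG00000053129.5, chr5:147188696-147190947, plus strand, 1 TSS) was covered over 1176 bases in LGE, 1801 in MGE, 2087 in CGE and 0 in CTX. LGE was thus the lowest of the 3 eminences for Gsx1, whose percentile there was 32.7, against 86.6 in MGE and 77.1 in CGE. The peak over the start was 684 bp wide in LGE, 1518 bp in MGE and 2087 bp in CGE, and covered 46.2% of the coding bases in LGE, 91.3% in MGE and 100% in CGE. A smaller upstream peak ended 1526 bp before the start in MGE (283 bp) and 1299 bp before it in LGE (492 bp), and CGE had none there. The MGE peak over the start was a weak call, with a −log10 q of 1.83, against 3.18 in LGE and 22.8 in CGE. With a −log10 q of at least 2 only 283 bases were left in MGE, so that MGE was then the lowest eminence and the highest percentile fell in CGE. Only 0.45% of the protein-coding genes marked in both lists had a lower ratio of LGE to MGE bases than Gsx1, whose ratio was 0.653.

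Gsx2 (ENSMUSG00000035946.7, chr5:75075601-75077893, plus strand) was covered over 2189 bases in LGE, 1910 in MGE, 2209 in CGE and 356 in CTX. One peak in each region lay over the start. The peaks of LGE and CGE ran from 330 and 340 bp before the start to 1858 and 1868 bp after it and covered all of the coding sequence. In CTX the peak ran from 116 bp before to 239 bp after the start, over 8.74% of the coding bases, and its −log10 q of 2.01 stood at percentile 12 of that list. The percentile of Gsx2 was 83 in LGE, 89 in MGE, 80.4 in CGE and 5.68 in CTX, so that the eminences lay close together and CTX far below. The ratio of LGE to CTX bases was 6.15, and 99.4% of the genes marked in both had a lower one.

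The zinc finger genes Sp8 and Sp9, paralogues that act in the subventricular zone of the eminences, differed from each other in CTX. Sp9 (ENSMUSG00000068859.5, chr2:73271925-73284706, plus strand) was covered over 3033 bases in LGE, 2973 in MGE, 3110 in CGE and 0 in CTX. The 3 eminences lay within 137 bases of one another, the smallest relative span of any of the 9 genes among the eminences. In LGE and CGE a single peak of 3033 and 3110 bp ran from just before the start over all of the coding sequence. In MGE the same stretch was split into a peak of 729 bp over the start and another of 2244 bp that began 827 bp after it. With peaks less than 1 kb apart joined, Sp9 had 3638 bases in MGE, against 3033 in LGE and 3110 in CGE. Without joining, the percentile of Sp9 was 94 in LGE, 98.1 in MGE and 92.9 in CGE. A further peak over the Sp9 intron shown above began 5402 bp after the start in MGE (401 bp), 5421 bp in LGE (555 bp) and 5399 bp in CGE (546 bp), outside the 5 kb windows, and CTX had none. Its fold enrichment was low in each list, at 2.27 in MGE, 1.85 in LGE and 1.88 in CGE.

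Sp8 (ENSMUSG00000048562.7, chr12:118846329-118852576, plus strand), which is also known from cortical progenitors, was covered over 3649 bases in LGE, 2258 in MGE, 3594 in CGE and 3347 in CTX. CTX stood close to LGE, and the ratio of LGE to CTX bases, 1.09, was the lowest of the 7 factors marked in both. A single peak of 3649 bp in LGE and 3594 bp in CGE spanned all of the coding sequence. Over the same stretch MGE had 3 separate peaks of 880, 820 and 558 bp, and CTX had 2, of 942 and 2192 bp, beside a 213-bp peak that ended 2972 bp before the 5′ end. The percentile of Sp8 was 97.1 in LGE, 93.7 in MGE, 95.7 in CGE and 98.6 in CTX. The 5′ end of the longest Sp8 transcript was outside the peaks of all 4 lists, and the second TSS, 1257 bp further in, was inside them. In MGE the 880-bp peak over that TSS was a weak call, with a −log10 q of 1.29. The MGE peaks of 820 and 558 bp stood at 2.8 and 2.43. With a −log10 q of at least 2 Sp8 kept 1378 bases in MGE.

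**Figure D2:**
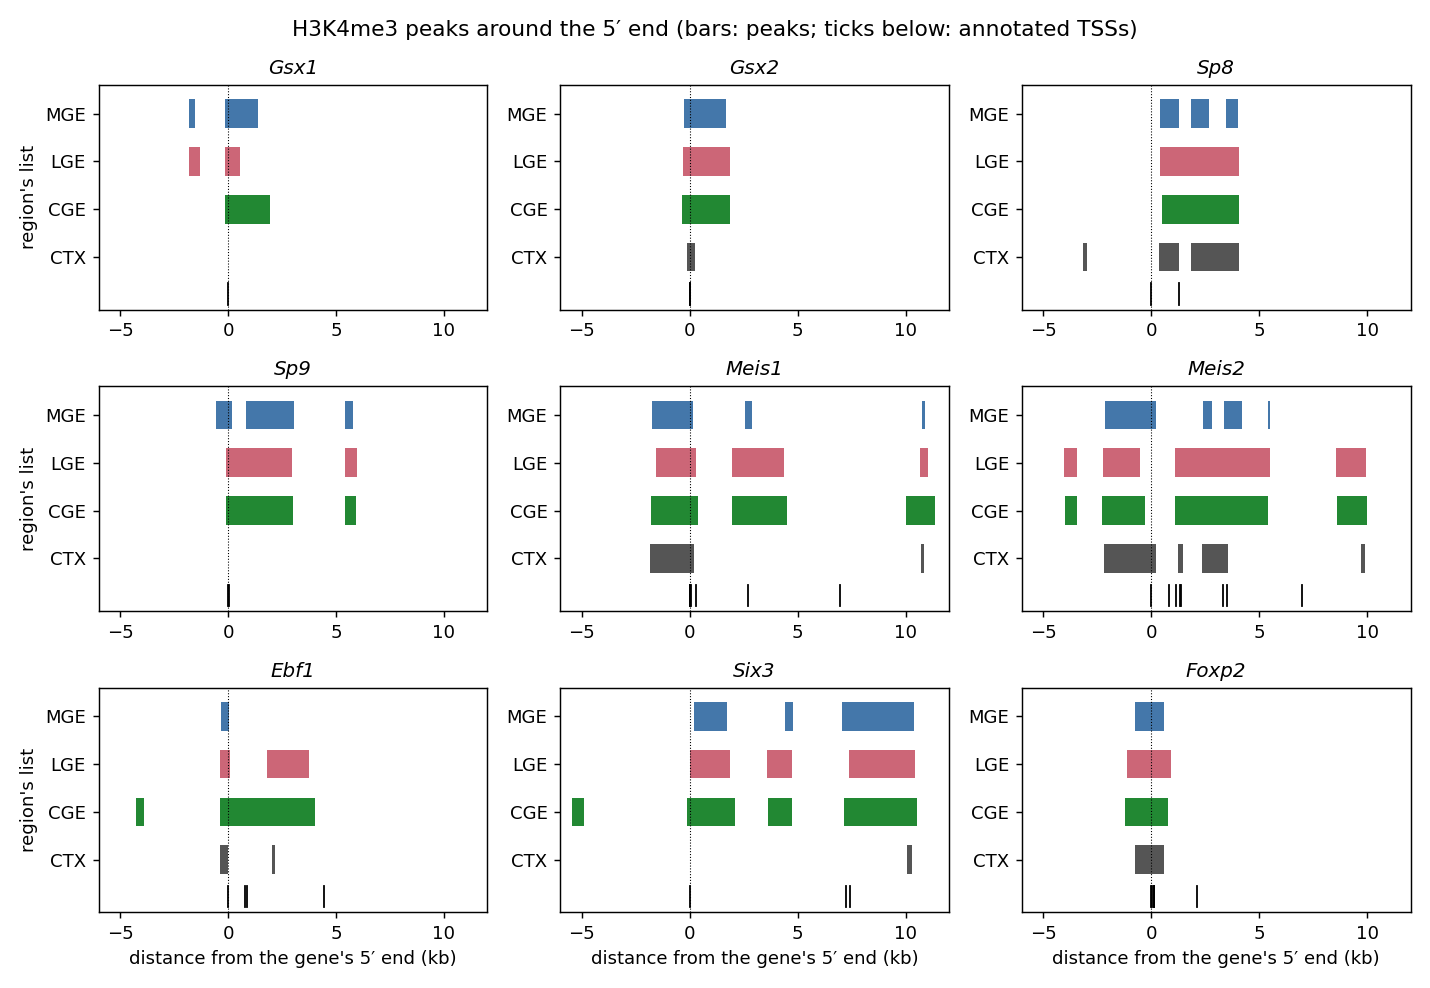
Peaks around the 5′ end of each factor (x axis, distance from the 5′ end in kb along the direction of transcription, from −6 to 12 kb), with 1 row per region's list. Bars are peaks and black ticks are annotated TSSs; Sp8 is split into 3 peaks in MGE and is 1 peak in LGE and CGE, and Gsx1 and Sp9 have no bar in CTX.

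Meis1 and Meis2, homeodomain cofactors of the TALE class that bind DNA with Pbx and Hox partners, had several separate promoters under peaks. Meis2, a marker of striatal projection neurons, was the most covered of the 9 factors in LGE. Meis2 (ENSMUSG00000027210.20, chr2:115863064-116065839, minus strand, 16 TSSs) was covered over 8719 bases in LGE, 3921 in MGE, 8681 in CGE and 4042 in CTX. The LGE and CGE values were within 38 bases of each other and more than 2 times those of MGE and CTX. In LGE only 3 protein-coding genes were more covered, in CGE 8, in MGE 70 and in CTX 77. Windows grow with the number of TSSs, and per length 18.2% of the Meis2 windows was covered in LGE, at percentile 91 on that scale, against 8.32% for the median marked gene.

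The Meis2 domain had one shape in LGE and CGE and another in MGE and CTX. A peak of 4400 bp in LGE and of 4317 bp in CGE lay 1094 and 1078 bp inside the gene and held 5 TSSs, and no single peak of MGE or CTX within that stretch was wider than 1180 bp. Conversely, the 5′ end itself lay inside a peak of 2362 bp in MGE and of 2418 bp in CTX, and outside the peaks of LGE and CGE, which stopped 523 and 307 bp before it. The 4400-bp and 4317-bp peaks had a low fold enrichment, of 1.79 and 1.93, at percentiles 0.2 and 0.589 of their lists. Those of 2362 bp in MGE and 2418 bp in CTX had 2.76 and 2.81, at percentiles 1.1 and 1.73. A peak 3432 bp upstream of the 5′ end was present in LGE (628 bp) and CGE (556 bp) only. The upstream peak next to the 5′ end also covered TSSs of 2700033N17Rik and G630016G05Rik, lincRNA genes on either strand, in all 4 lists, so that its bases cannot be assigned to Meis2 alone.

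Meis1 (ENSMUSG00000020160.18, chr11:18879817-19018985, minus strand, 7 TSSs), which acts with Hox factors in many tissues, was covered over 4685 bases in LGE, 2347 in MGE, 6032 in CGE and 2189 in CTX. LGE and CGE were the 2 high regions, and MGE and CTX were within 158 bases of each other. The promoter at the 5′ end had a peak of like width in all 4 lists, 1873 bp in LGE, 1907 bp in MGE, 2157 bp in CGE and 2056 bp in CTX. The difference lay in a second domain around the internal TSS 2696 bp further in, part of whose sequence is shown above. LGE had 2426 bp of peak there, against 323 bp in MGE and 2528 bp in CGE, and CTX had none. A smaller peak that began 10027 to 10760 bp into the gene was 117, 386, 1347 and 133 bp wide in MGE, LGE, CGE and CTX. Its −log10 q was 1.24, 3.83, 9.25 and 1.65 in that order. The antisense genes Gm16140 and Gm16141 also start within the Meis1 windows. Per length, 27.6% of the windows was covered in LGE and 13.8% in MGE.

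Ebf1, a helix-loop-helix factor of the COE family needed by striatal neurons of the direct pathway, was the factor with the widest relative range among the eminences. Ebf1 (ENSMUSG00000057098.14, chr11:44617317-45008091, plus strand, 5 TSSs) was covered over 2425 bases in LGE, 375 in MGE, 4775 in CGE and 529 in CTX. Its percentile was 87.9 in LGE, 7.09 in MGE, 98.7 in CGE and 10.4 in CTX, so that by bases LGE and CGE were high and MGE and CTX low. Per length, 9.92% of its windows was covered in LGE, nearer the middle at percentile 60.2 on that scale. CGE was at 90.9 on it, MGE at 5.03 and CTX at 8.97. A short peak at the 5′ end was found in all 4 lists, 473 bp wide in LGE, 375 bp in MGE and 370 bp in CTX, and in CGE it was the left edge of a single peak of 4416 bp. LGE had a second peak of 1952 bp that began 1794 bp after the 5′ end, within the CGE peak, and CTX had only 159 bp there and MGE none. The short peak lay also over the start of Gm37695, an unclassified transcript on the other strand. The 4416-bp CGE peak lay over the same start, and with peaks over a TSS of another gene left out Ebf1 kept 1952 bases in LGE and 359 in CGE, which turns the order of the pair. With all peaks the ratio of LGE to CGE bases was 0.508, and 1.21% of genes had a lower one.

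Six3, a homeobox gene of the anterior forebrain that also acts in striatal neurons of the indirect pathway, had the widest single peak of the 9 in MGE and almost none of the mark in CTX. Six3 (ENSMUSG00000038805.10, chr17:85613608-85629302, plus strand, 3 TSSs) was covered over 6135 bases in LGE, 5226 in MGE, 6793 in CGE and 245 in CTX. Its percentile was 99.8 in LGE, 99.9 in MGE and 99.7 in CGE, and 3.47 in CTX. Per length it was the most covered of the 9 genes in each eminence, with 35.2% of its windows under peaks in LGE, 30% in MGE and 39% in CGE. Each eminence had the same 3 domains, and CGE had a further peak of 568 bp that ended 4899 bp before the 5′ end. The first, at or just after the 5′ end, was 1565, 1848 and 2199 bp wide in MGE, LGE and CGE, and the second, which began between 3559 and 4422 bp after the 5′ end, 354, 1195 and 1094 bp. The last, over both inner TSSs in MGE and CGE, 1 of them in LGE, and 93.3% of the coding bases in each, was 3307, 3092 and 3398 bp wide. The only CTX peak was 245 bp wide, lay 2645 bp from the nearest TSS and had a −log10 q of 1.45, at percentile 1.74 of its list. In CTX all of its bases lay inside the LGE peaks, where they were 3.99% of the bases covered in LGE. The first and second domains lay over starts of Six3os1, a transcript of the other strand with 12 TSSs in the windows, and the last over the start of the antisense gene Gm28528, so that the genes cannot be told apart there. A further 7 small RNA genes start within the windows (Gm27435, Gm27801, Gm27610, Gm27283, Gm27275, Gm27502 and Gm27427).

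Foxp2, a forkhead factor of striatal projection neurons and of deep cortical layers, was marked at its 5′ end in all 4 regions and differed at an internal promoter. Foxp2 (ENSMUSG00000029563.16, chr6:14901349-15441977, plus strand, 16 TSSs) was covered over 4171 bases in LGE, 1752 in MGE, 4217 in CGE and 2089 in CTX. The peak at the 5′ end was 2048 bp wide in LGE, 1353 bp in MGE, 2010 bp in CGE and 1378 bp in CTX. The internal promoter lies 284157 bp into the gene, where TSSs cluster, and had a peak of 2123 bp in LGE and of 2207 bp in CGE. In CTX it had 2 peaks of 174 and 537 bp, and in MGE 2 of 175 and 224 bp. Both MGE peaks had a fold of 3.11 and a −log10 q of 1.05, a pair of values found in 1930 peaks of that list and close to its lowest. No coding base of Foxp2 lay under a peak in any list. Its percentile was 98.3 in LGE, 85.3 in MGE, 97.7 in CGE and 90.7 in CTX, but per length only 6.62% of its long windows was covered in LGE, at percentile 37.1 on that scale.

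**Figure D3:**
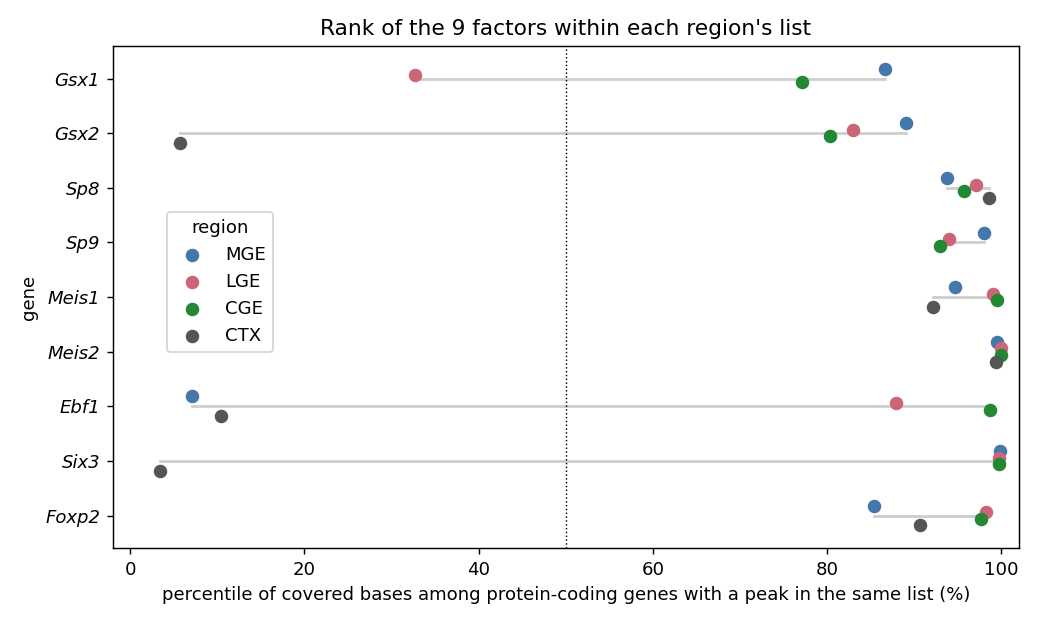
Percentile of each factor's covered bases among the protein-coding genes with a peak in the same list (x axis, %), with 1 point per region and a dotted line at 50. Sp8, Sp9, Meis1, Meis2 and Foxp2 sit above 85 wherever they are marked, and Gsx2, Ebf1 and Six3 sit below 11 in CTX.

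The order of the regions depended on the scale. By covered bases CGE was highest for 7 of the 9 factors (all but Sp8 and Meis2) and LGE for 2, with 0 for MGE and 0 for CTX. Of all protein-coding genes marked anywhere, CGE was highest for 72.7%, LGE for 16.3%, MGE for 4.88% and CTX for 4.99%, so that the factors' counts lay near the background. By percentile within the list MGE was highest for 4 factors (Gsx1, Gsx2, Sp9 and Six3), LGE for 2 (Meis2 and Foxp2), CGE for 2 (Meis1 and Ebf1) and CTX for 1 (Sp8). The background shares were 36.4% for MGE, 17.8% for LGE, 17.9% for CGE and 27.9% for CTX. The count for LGE, 2 of 9 on either scale, lay near its background shares. With lists of equal size it was 6 of 9 by percentile. That setting leaves the LGE list whole and takes the peaks of lowest fold from the other lists. The share of all genes under it is not given here, so this count has no background. The share of the window covered, in place of bases, put the same genes in the same regions. With 1 list per region, no neighbouring pair in these orders can be said to differ beyond replicate spread.

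The bases covered in LGE were set against each of the other lists. The ratio of LGE to CTX bases had a median of 2.16 over the 7 factors marked in both and of 1.26 over 13659 genes. LGE bases were at least 2 times those of CTX for 7 of the 9 factors (Gsx1 and Sp9 with 0 in CTX included), against 12% of genes marked in LGE. Sp8 and Foxp2, the latter just under the limit, were the others. The ratio of LGE to MGE bases had a median of 1.62 over the 9 factors and of 1.30 over all genes marked in both. It reached 2 for Meis2 (2.22), Ebf1 (6.47) and Foxp2 (2.38), 3 of 9 against 11.4% of genes, with Meis1 just below. The ratio to MGE was larger than that to CTX for Sp8, Meis2, Ebf1 and Foxp2, and smaller for Gsx2, Meis1 and Six3. The ratio of LGE to CGE bases had a median of 0.975 over the factors and 0.949 over all genes, and ranged from 0.508 for Ebf1 to 1.02 for Sp8. The limit of 2 times was chosen after the values had been seen.

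The positions of the marked bases were compared as well. Of the 36182 LGE bases of the 9 factors, 96.4% were also marked in CGE, 53.7% in MGE and 31.8% in CTX. Over the windows of all protein-coding genes these shares of the LGE bases were 97%, 70% and 71.4%. In turn 84% of the factors' CGE bases, 86.2% of their MGE bases and 89.9% of their CTX bases lay inside LGE peaks. Single genes departed from these sums: of the LGE bases of Sp8 61.9% were shared with MGE and 84.4% with CTX, of those of Foxp2 35.8% and 50.1%, of those of Meis2 34.6% and 37.9%, and of those of Ebf1 15.5% and 21.6%. In all 4 lists together 8603 bases were marked, none of them in Gsx1 or Sp9 and most in Meis2 (2230), Sp8 (2203), Meis1 (1801) and Foxp2 (1448). Of the 54 annotated TSSs of the 9 genes, 26 lay under a peak in LGE, 22 in MGE, 31 in CGE and 19 in CTX. The share of all annotated TSSs under a peak is not given here. The lists also differ in the bases they cover, so these counts have no background.

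Several of the factors had broad domains. A peak of 3 kb or more, a limit chosen after the values had been seen, lay in the windows of Six3 in MGE (0.322% of marked genes had such a peak), of Sp8, Sp9, Meis2 and Six3 in LGE (2.42%), of these and Ebf1 in CGE (3.25%), and of none in CTX (0.456%). The widest peak of each factor stood at a median width percentile of 95.1 in LGE, 97.5 in MGE, 97.9 in CGE and 86.8 in CTX among all peaks of the list. The fold enrichment of those same peaks was low, with median percentiles of 3.93, 10.8, 18.6 and 12 in the same order. All 24 peaks of the factors in LGE and all 22 in CGE were below their list's median fold, as were 23 of 28 in MGE and 16 of 19 in CTX. Wide peaks had a lower fold in the lists as a whole too: in LGE the 323 peaks of at least 3 kb had a median fold of 3.17 and the narrower ones 5.69. The fold is an average over the peak, and the part of peak width in these low values was not tested.

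**Figure D4:**
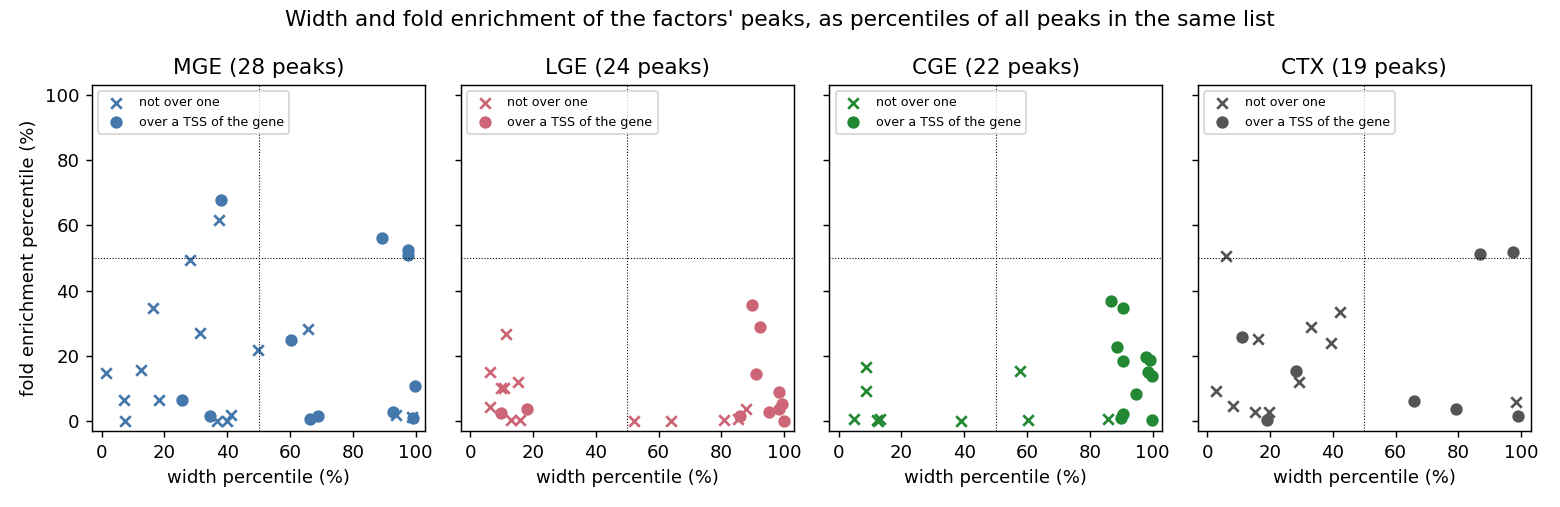
Width percentile (x axis, %) and fold enrichment percentile (y axis, %) of every peak of the 9 factors, gene bodies included, among all peaks of the same list, in 1 panel per region. Circles lie over a TSS of the gene and crosses do not; all points of LGE and CGE lie below the dotted line at the middle of the fold scale.

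Outside the 5 kb windows the gene bodies held 4 peaks in LGE, 5 in MGE, 2 in CGE and 3 in CTX. These covered 1920, 1296, 1000 and 1156 bases in that order. The number of such peaks over all gene bodies is not given here, so the counts have no background. Sp9 accounted for 1 in each eminence. Meis2 had a peak about 56 kb into the gene in MGE (249 bp), LGE (515 bp) and CGE (454 bp) and none there in CTX. Another Meis2 peak about 85 kb into the gene was found in LGE (382 bp) and CTX (580 bp). Between 45 and 46 kb Meis2 had peaks that measured 468 bp in LGE, 151 bp in MGE and 430 bp in CTX. Meis1 had body peaks in MGE only (362 and 133 bp), and Ebf1 in CTX only (146 bp). Weak calls, with a −log10 q below 2, were the 382-bp Meis2 peak in LGE (1.45) and 3 of the MGE peaks. The latter were the 133-bp peak of Meis1 (1.05), the 151-bp peak of Meis2 (1.29) and the 401-bp peak of Sp9 (1.43). The 382-bp and 133-bp peaks had the most repeated pair of fold and −log10 q of their lists, found in 48 LGE and 1930 MGE peaks. All of these body peaks had a width below the median of their list.

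**Figure D5:**
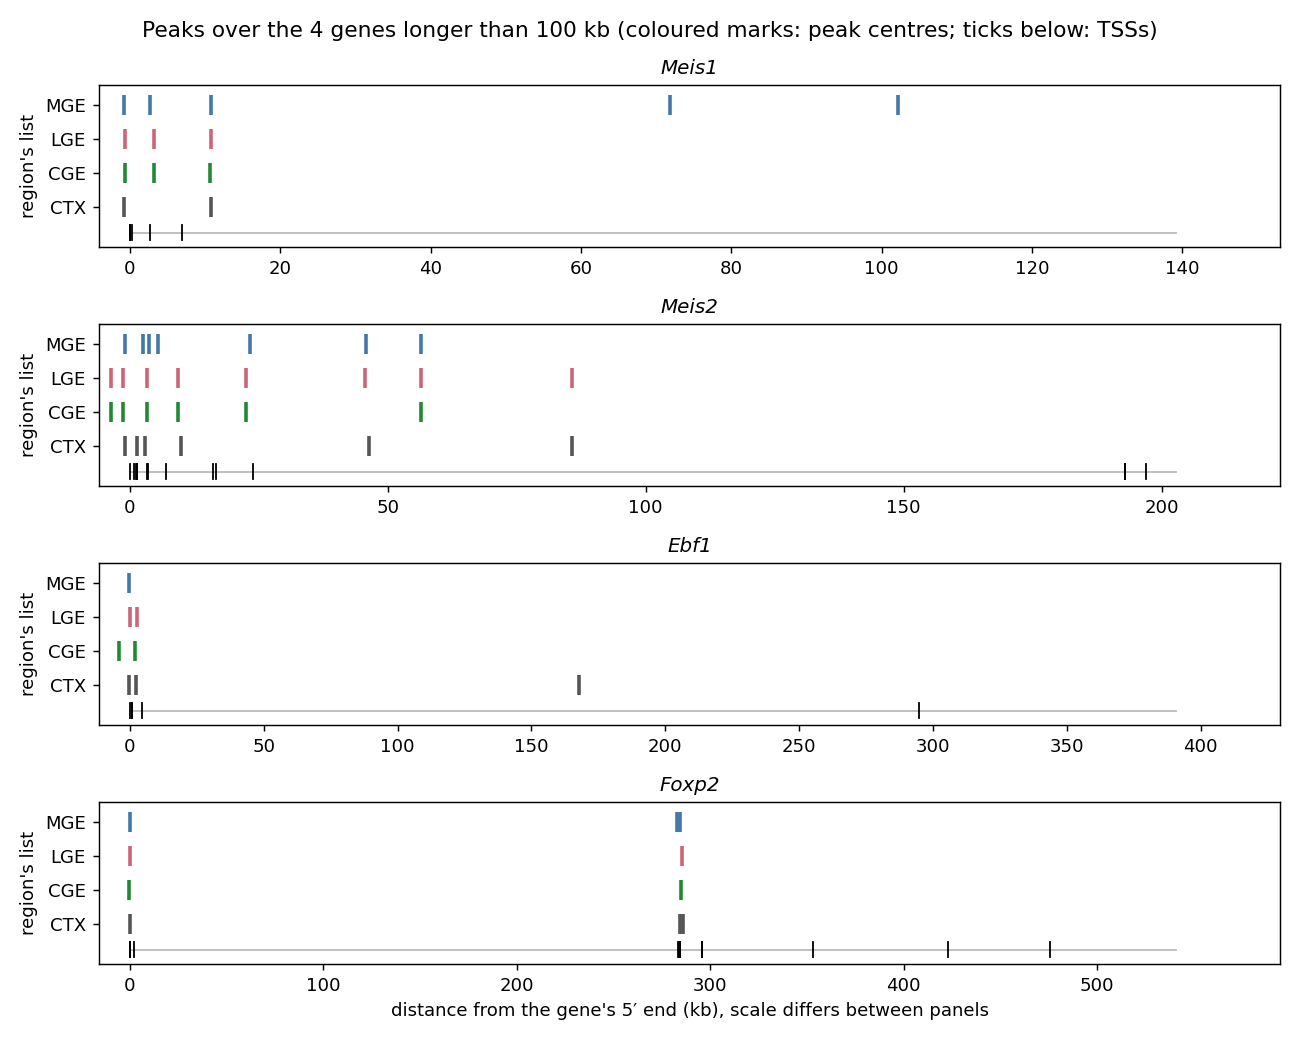
Position of every peak centre (coloured marks) along Meis1, Meis2, Ebf1 and Foxp2 (x axis, distance from the 5′ end in kb, scale set per gene), with 1 row per region's list and black ticks for annotated TSSs. Marks gather at the 5′ ends and, in Foxp2, at the internal promoter 284 kb into the gene.

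Other genes of the lineage were described from lists of known members. All 18 further transcription factors of the LGE and striatum were marked in all 4 lists, with median percentiles of 94 in LGE, 93.2 in MGE, 95 in CGE and 69.3 in CTX. In LGE they ranged from Rarb, a retinoic acid receptor (1557 bases), to Dlx6 (4836 bases). The highest percentile fell in MGE for 6 of them, in LGE for 5, in CGE for 5 and in CTX for 2. The 11 effector genes of mature striatal neurons, such as dopamine receptors and neuropeptides, were lower, with medians of 58.6, 53, 67.2 and 16 in the same order. All 11 were marked in the eminences, and 10 in CTX, where Drd2, the dopamine receptor of the indirect pathway, was at 0 against 1542 bases in LGE, 165 in MGE and 1810 in CGE. Their extremes in LGE were Pdyn, which encodes prodynorphin (459 bases), and Pde10a, a striatal phosphodiesterase (4346 bases).

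Of the 20 paralogues of the 9 factors 16 were marked in all 4 lists, with 18 marked in LGE, 18 in MGE, 19 in CGE and 16 in CTX. Six6, the eye and pituitary relative of Six3, had no peak in any list. Pdx1, the pancreatic relative of the Gsx genes, had 373 bases in LGE, 1226 in CGE and none elsewhere. Sp7, which directs bone formation, had 156 bases in MGE and 847 in CGE. Six2, a kidney progenitor factor, had 1752 bases in LGE, 302 in MGE, 1631 in CGE and 0 in CTX. The most covered paralogue in LGE was Foxp4, with 5297 bases.

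The protein-coding genes with the most similar patterns were found by the largest difference in percentile over the 4 lists, a gene without a peak being set to 0. Nearest to Gsx1 were Lhx8 (difference 8.78), Metap1d and Lxn, and nearest to Gsx2 were Nkx6-2 (3.1), Gpm6a and Fgf16. Sp8 was nearest to Inppl1 (0.596), Kif26b and Tmem189, and Sp9 to Grik3 (2.71), Mapk10 and Nkx2-1. For Meis2 these were Ostm1 (0.151), Nrg1 and Bahcc1. Ebf1 was nearest to Cpeb1 (5.85), Pgf and Thbd, Six3 to Slc32a1 (3.47), Lhx6 and Mapk10, and Foxp2 to Slc4a2 (2.05), Pak3 and H13.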

How the data were processed

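H3K4me3 CUT&Tag was measured in 12 libraries of MGE, LGE, CGE and CTX. By the study's methods the authors aligned reads with Bowtie2 to GRCm38/mm10, removed blacklisted reads and Picard duplicates, merged replicates with SAMtools and called broad peaks with MACS; its version, threshold and control are not given in the sources used here. Each of the 4 lists is a headerless table of 9 columns, and the p-value column of each (4 in all) was not used. The fold enrichment deposited by the authors is a ratio of reads to the caller's background averaged over a peak. The deposited −log10 q values come from the same caller and rise with depth, so they were ranked within a list only, apart from 1 alternative minimum. The caller score deposited by the authors is about 10 times the −log10 q and was not used further. Read counts behind peaks are unknown, so no counting interval was possible.

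Positions are 1-based. Genes and TSSs came from GENCODE M21 (GRCm38), sequences from RefSeq of the same build, and all 11 promoters of the factors matched the genome. An overlap was at least 1 bp; covered bases are the bases of the merged 5 kb windows under peaks. Percentiles are mid-ranks. Genes named were the 9 factors, their 3 nearest patterns each, other genes starting in their windows and, from the lists of lineage factors, effectors and paralogues, those marked in 1 to 3 regions and the most and least covered in LGE. The factors and lists were chosen with earlier results of these data known. Computation used Python 3.11.15 with numpy 2.4.6 and figures matplotlib 3.10.9, and the interval code was tested on simulated data. Peaks over another gene's TSS were left out as an alternative chosen after seeing the data. The genes nearest in pattern to Meis1 are not reported here.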

Additional observations from a re-analysis of the deposited data

How the results depend on the processing

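No paired analysis was possible because peaks were called on merged replicates, and no replicate could be left out. Of 136 recomputed counts 112 stayed within 1.5 times the value reported, and of 324 values of covered bases 205 did not change. Taking 17284 peaks from each list by highest fold left 5 factors with a peak in MGE and 3 in CTX. It also put the highest percentile in LGE for 6, in MGE for 1 and in CTX for 0, the most covered region in LGE for 4, and left 1 body peak in CGE and 2 in MGE. By construction this removes the peaks of lowest fold from the longer lists and none from LGE, the shortest list. It removed the MGE peaks of Gsx1, Sp8, Sp9 and Six3 and the CTX peaks of Gsx2, Meis2, Ebf1 and Six3, and left Meis2 with 167 bases in MGE and 456 in CGE. Using the gene 5′ end only, the highest percentile fell in CGE for 4 and in LGE for 1, and with a 10 kb window in LGE for 1, with 1 body peak in CGE. A 2 kb window counted 8 body peaks in MGE, 6 in CTX and 4 in CGE. A −log10 q of at least 2, or a width of at least 250 bp, left 2 in MGE. Joining peaks less than 1 kb apart made MGE, LGE and CTX the most covered region for 1 factor each, Sp9, Meis2 and Sp8 in that order. TSSs of protein-coding transcripts made LGE the most covered region for 1. Leaving out peaks over a TSS of another gene, chosen after seeing the data, put the highest percentile in CGE for 1 and in CTX for 2 and made CTX the most covered for 1. It took away every MGE peak of Ebf1 and Six3 and every LGE peak of Six3, and the wide CGE peak of Ebf1, which left that gene 359 bases there against 1952 in LGE. Six3 had no CTX peak with the 2 kb window, the 5′ end, the minimum of −log10 q or that of width. Gsx1 and Sp9 had none in CTX under any of these settings, of which only the 10 kb window could have added one. The causes of these shifts were not tested beyond what each setting's construction shows.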

Other observations

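Beyond the windows, several peaks stood within 15 kb of the factors. Upstream of Gsx2 a peak region between 8617 and 7660 bp before the 5′ end was found in all 4 lists, with 748 bases in LGE, 392 in MGE, 951 in CGE and 167 in CTX. Downstream of Gsx2, from 8814 bp on, 839, 1111 and 1228 bases were marked in MGE, LGE and CGE and 0 in CTX. Upstream of Sp9, from 8275 bp before the start, 399, 1246 and 1078 bases were marked in MGE, LGE and CGE, and 0 in CTX. Upstream of Ebf1, from 6316 bp before the start, these values were 178, 644 and 649 bases in the same order, and 0 in CTX. A region upstream of Meis1, from 8788 bp before the 5′ end, was marked in all 4 lists and had a fold of 7.69 in LGE, higher than that of any Meis1 peak in the windows. Sp8 had a peak region upstream from 10101 bp before the 5′ end (348, 1371, 933 and 315 bases in MGE, LGE, CGE and CTX). Some other flanking regions were not marked in LGE. Sp8 had 609 bases from 5884 bp before and 206 bases from 9923 bp after the 5′ end, in CTX only. Gsx2 had 1037 bases from 7094 bp after the 5′ end in MGE only. Meis2 had 566 bases in CTX and 130 in MGE from 10309 bp before its 5′ end. The regions given here are a selection.

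The study assigned 6 presumptive enhancer intervals that overlap tested candidate enhancers to Gsx1, Gsx2, Meis1, Meis2 and Sp9, which had 2. A peak lay in 3 of them in LGE, 5 in MGE, 2 in CGE and 1 in CTX. The share over all such intervals of the study is not given here, and MGE had the most peaks of any list. These counts therefore have no background. The Sp9 interval in the gene body was the one marked in all 3 eminences, and the Meis2 interval was marked in LGE only (339 bases).

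The paralogues Ebf2 and Ebf3, named after their values were seen, were also more covered in LGE and CGE than in MGE and CTX. Ebf2 was covered over 4451 bases in LGE, 813 in MGE, 4428 in CGE and 371 in CTX, and Ebf3 over 1289, 292, 3357 and 630 in the same order.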
